A study of Rattus norvegicus with 2 samples.

Results

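Clade B serpins are a family of protease inhibitors, and 9 of their genes were described in newborn rat epidermal keratinocytes kept for 5 days with or without retinoic acid (RA). The genes were Serpinb2, Serpinb3, Serpinb3a, Serpinb5, Serpinb8, Serpinb9, Serpinb11, Serpinb12 and Serpinb13. They were taken by symbol from the probe sets whose platform annotation gives exactly 1 gene, with the probe set of the highest mean kept for each gene. All 9 were found among 22093 such genes, which held 19 clade B serpin genes in all. The 9 genes were chosen by their log2 signals on these same arrays, so their differences are a description and carry no test.

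The series holds 2 arrays, 1 per group. The cells, named NRK cells in the labels, were grown in DMEM with hydrocortisone, antibiotics and 10% fetal bovine serum, with the medium renewed every 24 h in both groups. The RA array holds RNA of cells given 5 µM all-trans retinoic acid, dissolved in dimethyl sulfoxide, until day 5. The other array, also of day 5, carries no treatment mark in its title and was taken as the vehicle control, since vehicle is the other treatment in the design text. The labels used here give no strain, and do not say whether an array holds 1 culture or a pool. No value below therefore has a replicate or an error.

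Serpins trap a protease by offering an exposed loop as bait and changing shape once the loop is bitten, which destroys both partners. Those of clade B lack a classical secretion signal and act mostly inside the cell or at sites of cell damage. Several are strongly made by the upper layers of stratified epithelia, and rodents carry more copies than humans. Retinoic acid, the active metabolite of vitamin A, binds nuclear receptors and is known to oppose the cornification of cultured keratinocytes.

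Levels are log2 signals of probe sets as deposited. A difference is the value with RA less the value without it, and 1 log2 unit is called 2-fold. A gene was counted where its higher value reached a floor of 3.81, the median over all probe sets of both arrays, and all 9 serpins did. This floor lies under the medians of the rat negative controls, 4.57 without RA and 4.47 with RA. A gene above the floor can therefore still be at background. Of the 9 genes, 7 were at least 2-fold lower with RA, 1 was at least 2-fold higher and 1 lay between, and the median difference was -2.14. Among all 14274 genes that reached the floor, the lower share was 5.63% and the higher share 7.88%, with a median of -0.03. Because the same values chose the 9 genes, nothing is read from the contrast of these shares. Fewer cells of a layer and less RNA per cell cannot be told apart in bulk RNA.

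**Figure D1:**
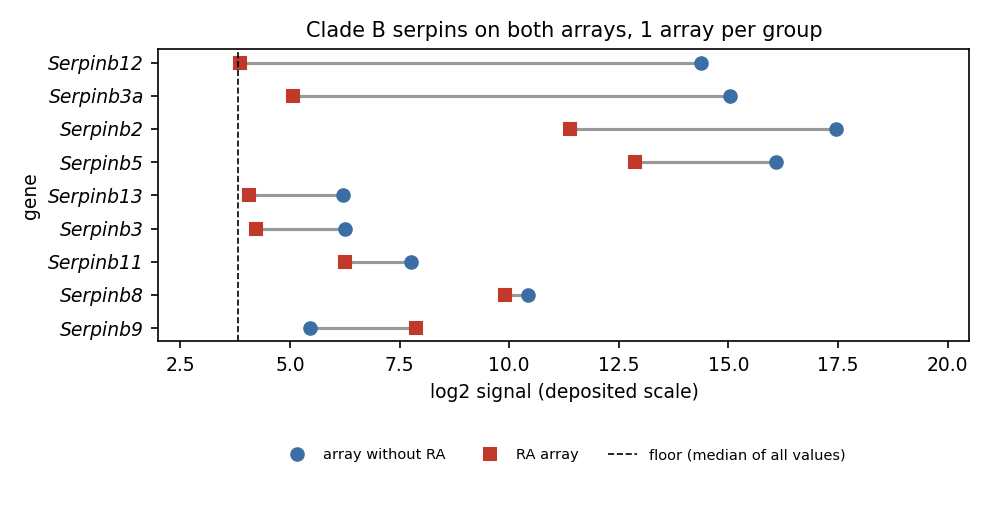
Log2 signal of each of the 9 serpin genes (horizontal axis, deposited scale) on the array without RA (circles) and on the RA array (squares), with 1 array per group and a dashed line at the floor of 3.81. Serpinb12 ran from 14.37 down to 3.85, next to the floor, whereas Serpinb9 ran upward from 5.46 to 7.89.

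The promoters of members that were lower together are shown first, because they carry the letter motifs counted below. Each window spans 250 bases before to 50 after a gene's annotated start, from RefSeq on build GRCr8, and is printed 5′ to 3′ on the gene's own strand. The window of Serpinb5 lies at chr13:23499953-23500252 on the plus strand, that of Serpinb3 at chr13:23795249-23795548 on the minus strand and that of Serpinb13 at chr13:23632970-23633269 on the plus strand. These 3 were printed because the window sits at the outer start of the gene and holds a match. Capitals mark the letters TGANTCA, a looser form of the core TGAGTCA that AP-1 factors bind, and TATAAA, the core of the TATA box.
Serpinb5: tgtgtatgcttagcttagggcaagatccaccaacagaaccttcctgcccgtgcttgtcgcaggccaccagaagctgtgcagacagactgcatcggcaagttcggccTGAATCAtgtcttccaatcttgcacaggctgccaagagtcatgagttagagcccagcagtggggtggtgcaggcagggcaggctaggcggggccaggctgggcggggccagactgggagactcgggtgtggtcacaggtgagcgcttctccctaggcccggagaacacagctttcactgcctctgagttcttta
Serpinb3: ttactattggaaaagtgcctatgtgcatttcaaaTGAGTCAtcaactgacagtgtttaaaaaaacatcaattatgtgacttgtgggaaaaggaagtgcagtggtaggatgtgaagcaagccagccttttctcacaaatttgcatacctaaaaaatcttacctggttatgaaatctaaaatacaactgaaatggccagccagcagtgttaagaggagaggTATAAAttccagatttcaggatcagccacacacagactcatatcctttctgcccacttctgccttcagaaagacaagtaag
Serpinb13: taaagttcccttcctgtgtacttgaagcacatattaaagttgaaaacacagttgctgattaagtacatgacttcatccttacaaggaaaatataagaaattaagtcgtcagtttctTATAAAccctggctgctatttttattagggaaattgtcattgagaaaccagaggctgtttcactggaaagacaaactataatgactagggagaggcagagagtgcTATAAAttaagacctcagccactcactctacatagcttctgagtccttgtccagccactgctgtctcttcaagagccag

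In these windows TGANTCA began 144 bases before the start of Serpinb5, as TGAATCA, and 216 bases before the start of Serpinb3, as TGAGTCA. The TATA box letters began 31 bases before the start of Serpinb3 and 29 bases before that of Serpinb13, which held a further match at 134 bases. Of the 9 members, 7 had at least 1 window in the table, with 8 windows in all. TGANTCA was found in 3 of the 8 windows, each of a different member. The third member was Serpinb2, with TGATTCA, whose window starts inside its annotated span. Of the 3 matches, that of Serpinb3 alone has the AP-1 core letters TGAGTCA. The same letters occurred in 7.33% of all 33469 windows and TATAAA in 14.2%, with 2 of the 7 members holding the latter. TATAAA was added to the search after the values were seen. Direct repeats of AGNTCA, the kind of element that retinoic acid receptors bind, were searched with spacers of 1, 2 and 5 bases of any kind. None of these repeats was in a member's window, and 0.152%, 0.134% and 0.0896% of all windows held them. At such rates a match in 8 windows would be rare, so its absence does not show that the members lack such elements. Repeats in which either copy begins with a letter other than A were not searched. Both strands were searched, and no match of one motif overlapped a match of another in the printed windows. A match is a run of letters and not a shown binding site.

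Among serpins that act on serine proteases, Serpinb12 had the largest difference of the family by the probe set that was kept. Serpinb12, which inhibits trypsin-like enzymes, stood at 14.37 without RA and at 3.85 with RA, a difference of -10.51. The RA value lay next to the floor and under the 4.47 that was the median of the rat negative controls on that array, so the difference has no exact size and may be smaller than the true one. A second probe set of the gene went from 12.09 to 4.10, so that both of its probe sets lay near the floor on the RA array and far above it on the other. The difference of this second probe set, -7.98, and the -9.25 of averaged probe sets were smaller in size than the -9.95 of Serpinb3a.

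Serpinb2 encodes plasminogen activator inhibitor 2, which inhibits the urokinase and tissue types of plasminogen activator and is a component of keratinocytes and stimulated macrophages. Its signal was 17.46 without RA and 11.38 with RA, a difference of -6.08 at rank 50 from the lowest. Unlike Serpinb12, it remained well above the floor on the RA array. Serpinb11, whose human protein has lost inhibitory activity while the mouse protein inhibits trypsin-like enzymes, went from 7.75 to 6.26, a difference of -1.49.

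The squamous cell carcinoma antigens and headpin include inhibitors of cysteine cathepsins, a class apart from serine proteases. Serpinb3a, which in the mouse inhibits both classes, went from 15.03 without RA to 5.08 with RA, a difference of -9.95. Serpinb3, its neighbour in the genome, was at 6.27 and 4.23, a difference of -2.04. Serpinb13 (headpin), whose human protein inhibits cathepsins L and K, was at 6.21 and 4.07, a difference of -2.14. The RA values of Serpinb3 and Serpinb13 lay within 0.5 units of the floor, where background may make up the signal and a difference may be smaller than the true one. Serpinb3 and Serpinb3a are close relatives whose probe sets may share signal, which was not tested.

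Serpinb5 (maspin), named as a tumour suppressor of mammary epithelium, has no known inhibition of a protease. It was at 16.08 without RA and 12.87 with RA, a difference of -3.21. Its RA value was still far above the floor, as was that of Serpinb2.

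Serpinb8 and Serpinb9 did not share the size or the direction of the others. Serpinb8, which inhibits the proprotein convertase furin in human cells and whose loss causes a peeling skin disorder in people, was at 10.42 without RA and 9.91 with RA. Its difference of -0.51 was the only one of the 9 under 2-fold. Serpinb9, the inhibitor of granzyme B that shields cytotoxic lymphocytes from their own enzyme, was at 5.46 without RA and 7.89 with RA. Its difference of 2.43 stood at rank 290 from the highest, and it was the only one of the 9 that was higher with RA.

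**Figure D2:**
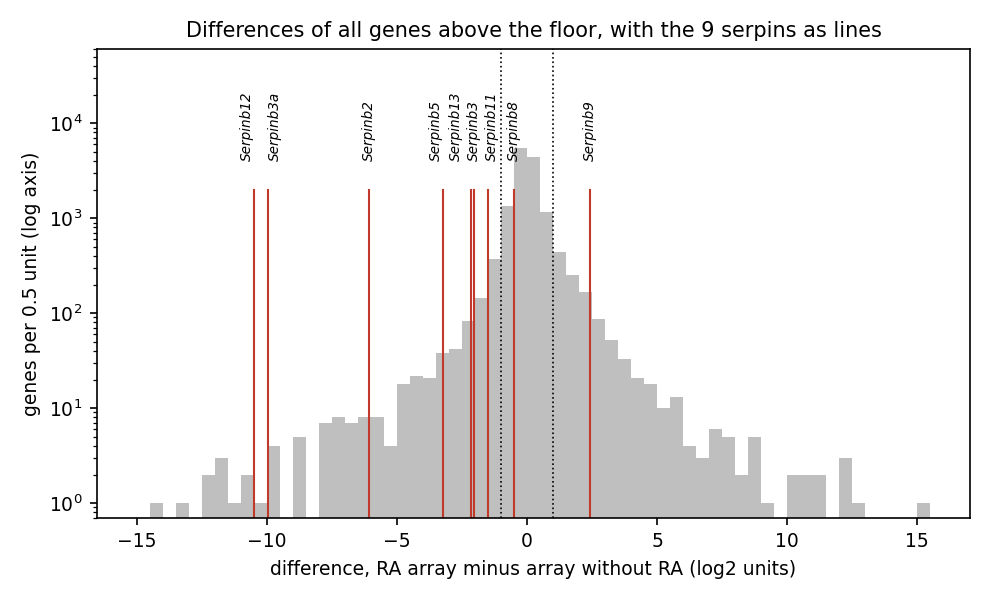
Number of genes per 0.5 log2 units of difference (vertical log axis) for the 14274 genes above the floor, with a labelled line at the difference of each of the 9 serpins and dotted lines at 2-fold. Serpinb12 and Serpinb3a stand in the far lower tail, whereas Serpinb8 at -0.51 lies in the central peak.

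Control probe sets also differed between the arrays. For 1153 rat negative controls, whose median was 4.57 without RA and 4.47 on the RA array, the central 95% of differences ran from -2.17 to 2.01. For 399 rat positive controls it ran from -1.72 to 2.14, and for 92 spike sequences, most of them dim, from -0.43 to 0.25. At 2-fold, 181 of the negative controls were lower with RA and 137 higher. Of the positive controls 61 were lower and 50 higher, and of the spike sequences 0 and 0. Of the negative controls 304 had a brighter value of at least 6, a limit chosen after the values were seen, and their differences ran from -4.12 to 4.61 in full. The differences of Serpinb12, Serpinb3a and Serpinb2 were further from 0 than all of these 304, whereas those of Serpinb5, Serpinb9, Serpinb13, Serpinb3, Serpinb11 and Serpinb8 lay within their span. This is a description, since the serpins were chosen by the same differences. On the deposited scale, values above 16, the log2 ceiling of a 16-bit scanner, occurred 963 times without RA and 670 times with RA. The Serpinb2 and Serpinb5 values without RA are among these. The step that gave such values is not in the sources used here. The size of every difference, and each 2-fold call, therefore holds on this scale only.

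The other 10 clade B serpins of the table gave a mixed picture, with 9 above the floor. Of those 9, 2 were lower by 2-fold or more and 0 were higher. Serpinb10 (bomapin), known from blood-forming cells, went from 11.16 to 7.60, a difference of -3.56. Serpinb7 (megsin), whose loss causes a palmoplantar keratosis in people, was at 16.96 and 15.19, a difference of -1.78 that became -0.96 after a lowess curve was subtracted. Serpinb1a, the inhibitor of neutrophil elastase, was at 19.07 and 18.73, near the top of the scale, and its sign turned from -0.34 to 0.69 after that lowess correction. Serpinb6a was at 7.58 and 7.93. The median of the 9 was -0.16, and 0.26 after lowess.

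The genes lie in 2 clusters by the RefSeq order of protein-coding genes, with LOC and RGD symbols left out. In the cluster that runs from Serpinb5 through Serpinb12, Serpinb13, Serpinb3a, Serpinb3, Serpinb11, Serpinb7, Serpinb2 and Serpinb10 to Serpinb8, all 10 genes had a lower value with RA, 9 of them by at least 2-fold as deposited and 8 after lowess. Of all 14274 genes above the floor, 7583 had a lower value and 5.63% were lower by 2-fold or more, and nothing is read from the contrast because most of the 10 genes were chosen by these values. The differences ran from -10.51 to -0.51, with a median of -2.67. In the cluster that holds the Serpinb1, Serpinb6 and Serpinb9 genes, 8 of 9 reached the floor, and 4 reached the floor at the 75th percentile. Of the 8 genes, 0 were past 2-fold on the lower side and 1, Serpinb9, on the higher side, with a range from -0.44 to 2.43. Serpinb9b and Serpinb9d, its closest relatives by name, stayed near the floor at 3.73 and 3.79 without RA and at 4.03 and 4.13 with RA. The split into clusters was made after the values were seen, and 8 of the 9 members belong to the first of them.

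**Figure D3:**
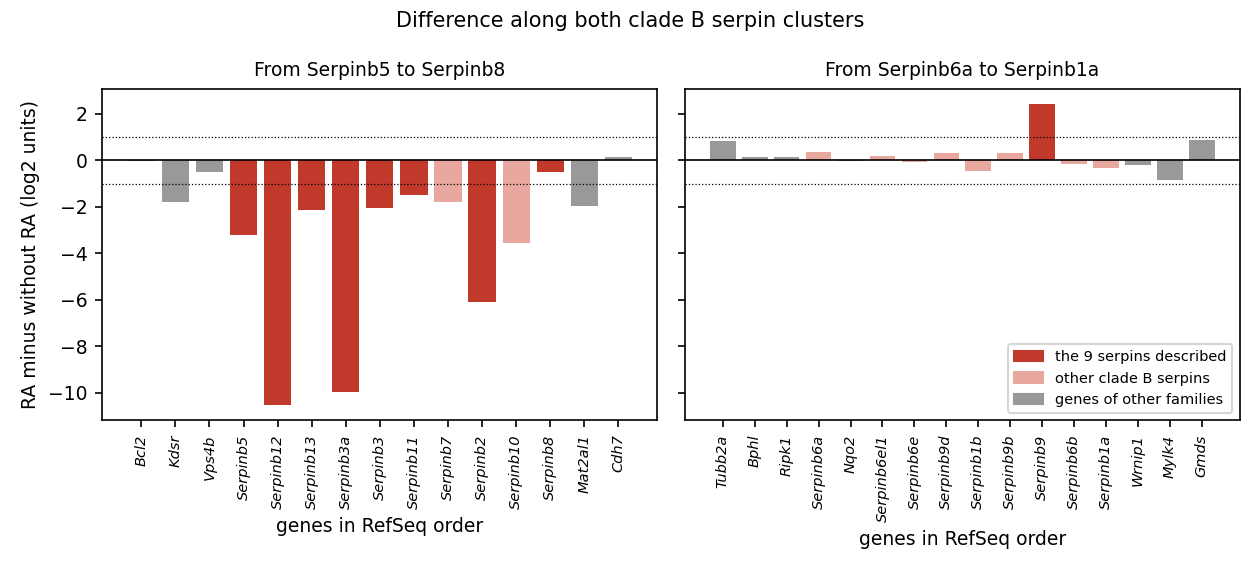
Difference in log2 units (bars, vertical axis) of the genes in RefSeq order along both serpin clusters and up to 3 flanking genes on each side, with dotted lines at 2-fold. The order holds protein-coding genes without LOC and RGD symbols. All serpins from Serpinb5 to Serpinb8 lie under 0, whereas the second cluster holds the single tall upward bar of Serpinb9 at 2.43.

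Serpins of the other clades were mostly at background. Of 27 such genes, 5 were above the floor and none was 2-fold different. Among the 5, Serpinh1, the collagen chaperone of the endoplasmic reticulum, was at 7.64 without RA and 6.86 with RA. The liver serpin genes Serpina1 and Serpinc1 were under the floor on both arrays, at 3.66 and 3.43 and at 3.69 and 3.57.

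Proteases that clade B serpins are known to inhibit, and enzymes beside which they act in skin, went both ways. Of 36 listed genes, 25 were above the floor, with 10 at least 2-fold lower, 8 higher and 7 between. Their median of -0.21 turned to 0.04 after lowess. Among the partners of Serpinb2, urokinase (Plau) at 8.54 and 8.32 and tissue plasminogen activator (Plat) at 5.42 and 5.39 showed little difference. The urokinase receptor (Plaur) was at 4.38 and 4.41. Both values lay under the negative control medians of 4.57 without RA and 4.47 with RA, so no difference can be read from them. Cathepsin L (Ctsl) is a target of human headpin and of a human squamous cell carcinoma antigen. It went the other way from Serpinb13, Serpinb3a and Serpinb3, from 11.24 to 14.19, a difference of 2.94. Cathepsin S (Ctss) was at 4.21 and 4.97, and cathepsin K (Ctsk) was under the floor at 3.28 and 3.24. Furin, the target of Serpinb8, went from 9.99 to 11.88. Granzyme B (Gzmb), the target of Serpinb9, was under the floor at 3.70 and 3.65.

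Of the 8 listed kallikreins, a family of trypsin-like and chymotrypsin-like enzymes that includes those which shed the cornified layer, 7 were at least 2-fold lower with RA. Klk10 went from 15.28 to 8.73 and Klk6 from 14.02 to 7.59, differences of -6.55 and -6.43. Klk7 went from 12.93 to 4.19 and Klk14 from 9.88 to 4.45, both under the negative control median of 4.47 with RA, so that their differences have no exact size. Klk5, Klk13 and Klk11 had differences of -3.27, -2.53 and -1.30, and Klk8 was within 2-fold at 8.32 and 7.65. Casp14, the caspase of terminal differentiation, was also lower, at -6.35, as was Ctsh at -1.52. Tmprss11d went from 6.97 to 3.60, under the floor. On the higher side, the membrane-bound enzymes St14 (matriptase) and Prss8 (prostasin) had differences of 3.15 and 1.58. Prss22 had one of 10.52, and the caspases Casp4, Casp8 and Casp1 had 2.80, 2.09 and 2.09.

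**Figure D4:**
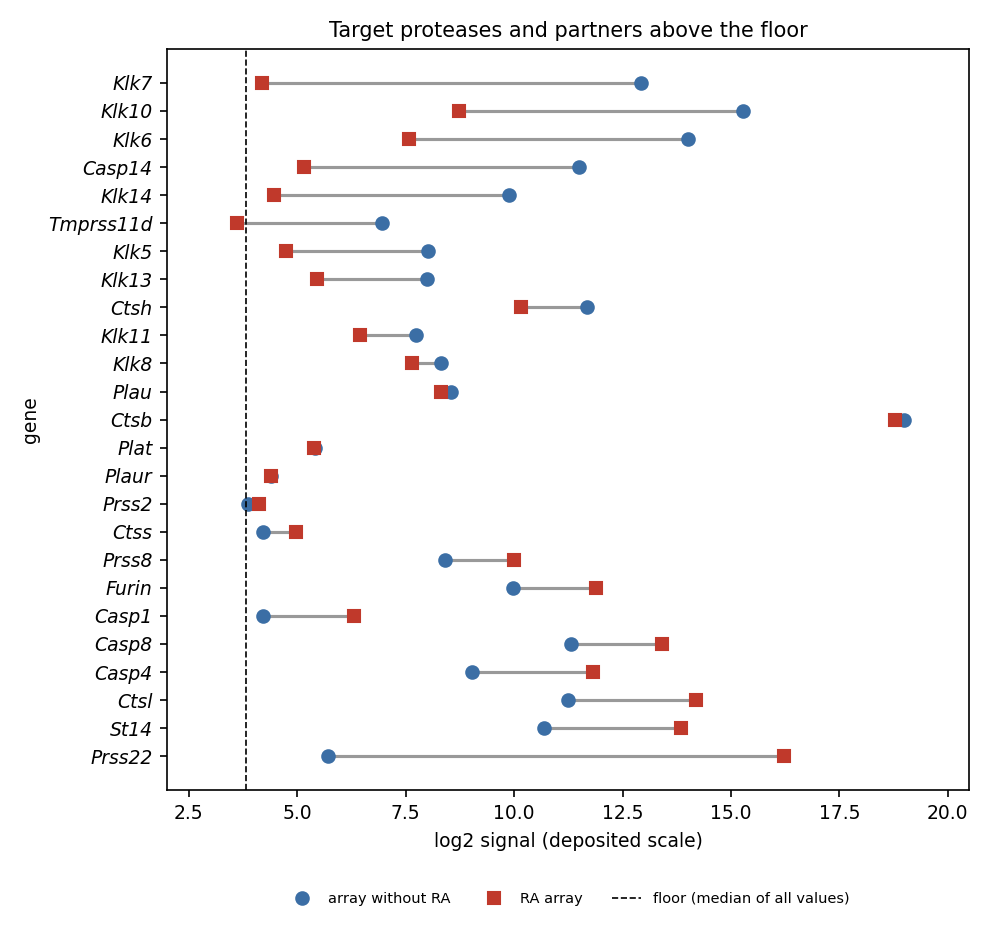
Log2 signal (horizontal axis, deposited scale) of the 25 target proteases and partners above the floor, without RA (circles) and with RA (squares), ordered by difference, with a dashed line at the floor. The kallikreins Klk7, Klk10 and Klk6 form the lower end, and Ctsl, St14 and Prss22 the upper end.

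For the 8 serpins past 2-fold, the genes with the most similar pair of values were found by Euclidean distance between the log2 values on the 2 arrays. The distance uses signal levels, which depend on the probes as well as on the RNA. Serpinb2 lay closest to Pof1b, an actin-binding epithelial protein gene at 17.41 and 11.45, and then to Spink5, the kallikrein inhibitor of the upper epidermis, at 16.85 and 11.11, at distances of 0.084 and 0.67. Serpinb3a lay closest to Lce3fl1, of the late cornified envelope family, and Sbsn (suprabasin), at 0.37 and 0.43. Serpinb12 had no very near neighbour, with Tmem45a2 at 0.95 and Dmkn (dermokine) at 1.13. Serpinb5 lay closest to the glycolipid transfer protein gene Gltp at 0.29 and to Cst6, a cystatin that inhibits cathepsins, at 0.87. Serpinb3 lay nearest to Plpp4 and Klk12, Serpinb13 to Il1r2 and Sprr4, Serpinb11 to Sh3pxd2a and Abhd5, and Serpinb9 to Phyhd1 and Mras. With only 2 arrays many genes can share a pair of values, and a small distance says nothing of shared function or control.

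The measured keratinocyte genes were above the floor on both arrays, many of them at a lower level with RA. Of 12 identity genes 11 were measured and all 11 were above the floor, with 8 at least 2-fold lower with RA and 0 higher. The basal keratin gene Krt14 went from 19.93, the highest value of the table, to 12.25, and the hemidesmosomal collagen gene Col17a1 from 11.96 to 6.71. Of the spinous layer, Krt1 went from 18.98 to 4.78, near the negative control median of 4.47 with RA, and Krt10 from 17.59 to 5.94. The others lower were Dsg3, Tp63, Perp and Dst. Krt15 was at 19.60 and 19.65, Itga6 at 11.94 and 11.66 and Itgb4 at 10.57 and 9.93. Of 17 measured immune markers 3 were above the floor, and the leukocyte marker Ptprc was at 3.53 and 3.42. Their summed linear signal went from 218 to 2720, with Cd68, a lysosomal protein of macrophages, at 5.41 and 11.31. Cd68 gave most of the immune sum with RA, and the other 2 immune markers above the floor were within 2-fold. Of 10 hair follicle and sebaceous gland markers 9 were above the floor, and Krt79, Krt75 and Scd were higher with RA, at 13.20, 11.69 and 9.13 against 5.23, 5.81 and 7.63. The other 6 above the floor were within 2-fold. The summed linear signal of the 10 markers was 485 without RA and 13451 with RA, most of the latter from Krt79 and Krt75. Of 10 fibroblast markers 5 were above the floor, with Col3a1 at 7.03 and 4.90 and Fn1 at 8.57 and 9.47, while Pdgfra, Dcn and Lum were under it. Of 6 endothelial markers Tek alone was above the floor, at 7.72 and 6.38. The part of these cell types in the serpin values was not tested.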

How the data were processed

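RNA was labelled with biotin from total RNA by a whole-transcript kit and hybridised to GeneChip arrays, per the labels' protocols. The deposited table holds log2 signals of 70580 probe sets, which the authors made with the Transcriptome Analysis Console and RMA, as the submitters' processing notes say. Versions, order of steps and genome build are not given in the sources used here. Base 2 was inferred from the range of the values. Of the probe sets, 23446 had 1 gene symbol, 505 several and 46629 none, and those with several or none were not used for genes. The platform symbols of the 9 members matched RefSeq (GRCr8) by Entrez ID.

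Differences, counts and distances were computed with Python 3.11.15, numpy 2.4.6, pandas 2.3.3 and statsmodels 0.14.6, and figures were drawn with matplotlib 3.10.9. With 1 array per group no test, error or p-value was computed. The array count limits the precision, and depth does not apply. The counting was tested on simulated data with far less noise than the spread of the control probe sets. That test covers the counting steps and not the effect of noise on the counts. The members and lists were chosen with earlier results of these data known. The text names all members, serpins and target proteases past 2-fold, a few preset proteases and, for each member past 2-fold, the 2 closest genes. The search for closest genes left out symbols that mark predicted genes, vomeronasal or olfactory receptors, microRNAs or ribosomal RNA. It also left out every symbol that starts with Rn, whatever the gene. Alternatives were median centring, lowess (span 0.2), quantile normalization, no floor or one at the 75th percentile (5.45), low values raised to the floor, averaged probe sets, and thresholds of 1.5-fold and 4-fold.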

Additional observations from a re-analysis of the deposited data

How the results depend on the processing

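All 9 serpins kept their direction and their side of 2-fold under the 5 alternatives that change values. Raising low values to the floor could alter none of the 9, whose values all lay above it. Averaging probe sets could alter Serpinb12 alone, the only member with 2. Serpinb5 ranged from -3.21 to -2.53 across the 5 alternatives, Serpinb12 from -10.51 to -9.25 and Serpinb8 from -0.53 to -0.25. Counts of all genes moved with the threshold, to 1757 lower and 1980 higher at 1.5-fold and to 285 and 435 at 4-fold. Higher genes made up 58.3% of those past 2-fold as deposited and 69.3% after lowess. Other clade B serpins past the threshold on the lower side numbered 1, in place of 2, after lowess (Serpinb7 at -0.96) and at 4-fold. The median of the other clade B serpins was 0.05 after quantile normalization, and that of the proteases 0.01. No paired analysis was possible because the series holds 1 array for either group, which also left no replicate to drop.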

Other observations

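Genes that flank the serpins from Serpinb5 to Serpinb8, in the order of protein-coding genes without LOC and RGD symbols, were not all flat. On one side Kdsr, an enzyme of ceramide synthesis, went from 9.88 without RA to 8.10 with RA, whereas Vps4b and Bcl2 differed by -0.49 and -0.01. On the other side Mat2al1 went from 11.61 to 9.67 and Cdh7 was under the floor. Around the cluster of Serpinb9 the measured flanking genes differed by under 2-fold, with Ripk1, a kinase of cell death signalling, at 5.98 and 6.11. The promoter windows of the members ranged from 34% to 59% G and C, against a median of 51.7% over all windows.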
